A study of Mus musculus with 10 samples.

Results

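The 631 regions described here are REST peaks found in the cortex of both WT and 3xTg mice at promoters with start sites on 1 strand. They were chosen by 3 values of the deposited peak lists and the annotation. A 3xTg peak had to overlap a WT peak by at least 1 base. Its summit, the position of highest signal in the peak, had to lie within 1000 bases of a curated RefSeq start site. The peak with 1000 bases added on each side had to hold start sites of 1 strand only. The 631 members are part of 5077 peaks in the 3xTg list, of 2489 3xTg peaks shared with WT, and of 1230 one-strand promoter peaks of the 3xTg list. The other 599 one-strand promoter peaks overlapped no peak of the WT list and are called 3xTg-only. Absence from the WT list does not mean a lack of REST binding in WT. Sharing and closeness to a start site are therefore properties of the choice and not results.

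REST ChIP-seq was performed on the cortex of 11-month-old female WT mice and 11-month-old female 3xTg mice with an antibody to the C-terminus of REST. 3xTg mice model Alzheimer's disease on a mixed strain background of C57BL/6J with 129Sv/Ev, and carry mutant human APPSwe and tauP301L transgenes with a PS1 knock-in mutation. Each genotype had 4 replicates, each a pool of 4 cortices, and 1 input sample. The peak lists analysed here are 1 per genotype and combine its 4 replicates, so every peak has 1 value per genotype with no replicate spread, and no test between genotypes was run. Whole cortex mixes neurons, glia and vascular cells, so a peak cannot be assigned to a cell type, and more bound cells cannot be told apart from more binding per cell. Among markers of cell types, 1 of 18 neuronal genes (Snap25), 1 of 10 endothelial genes (Ly6c1) and 0 of 10 each of astrocyte, oligodendrocyte and microglia genes had a member at the start site, beside 2.43% of 26180 curated genes, so these counts say nothing about the cell type.

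REST is a zinc finger repressor that silences neuronal genes in non-neuronal cells and keeps a subset of them low in neurons. It reads RE1, a long element made of a left arm and a right arm at a fixed spacing, and recruits CoREST, SIN3 and histone deacetylases. Elements with the same arms at a wider spacing are also known to bind REST.

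The sequence at the summit separated the members into a small group with RE1 and a large group without it. RE1 was searched as TCAGCACCNNGGACAGCNCC, which has 17 fixed positions among its 20 bases, on both strands of the 200 bases centred on the summit. A match was allowed at most 3 mismatches. Of the 631 members, 44 had a match (6.97%, 95% Wilson interval 5.24% to 9.23%), and 9 of these matched every fixed position. These 9 are printed from the RefSeq copy of mm10 (GRCm38.p6) because they carry the full element. Each sequence is written on the element's strand with 5 flanking bases on each side. Capitals mark the fixed positions that match, and lower case inside the element marks free positions and mismatches.

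Npas4 (chr19:4989156-4989185, plus strand): gggatTCAGCACCgcGGACAGCtCCtgcga
Chgb (chr2:132781790-132781819, plus strand): ggattTCAGCACCccGGACAGCtCCtagag
Golga7b (chr19:42256099-42256128, plus strand): tcctaTCAGCACCgcGGACAGCcCCcctga
Lhx3 (chr2:26208267-26208296, minus strand): ctcctTCAGCACCgcGGACAGCgCCagccc
Akain1 (chr17:69439377-69439406, minus strand): gacggTCAGCACCtcGGACAGCtCCctgcg
Ccdc92b (chr11:74619325-74619354, minus strand): accgaTCAGCACCgcGGACAGCgCCcaggc
Chrm4 (chr2:91921328-91921357, minus strand): caggtTCAGCACCtcGGACAGCcCCacacg
Chga (chr12:102555234-102555263, plus strand): aggatTCAGCACCtcGGACAGCaCCaggtc
Grin1 (chr2:25319009-25319038, minus strand): acgctTCAGCACCtcGGACAGCaCCcgccg

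Npas4 encodes an activity-induced transcription factor, and Chga and Chgb encode chromogranins, proteins of dense-core vesicles. Chrm4 encodes a muscarinic acetylcholine receptor, Grin1 the obligatory subunit of NMDA receptors, and Lhx3 a LIM homeodomain transcription factor. The 9 peaks ran from the strongest of all members to one under the members' lower quartile of 10.2. Npas4 had a fold enrichment, the ratio of ChIP signal at the summit to the local background, of 53.7 in the WT list and 55.8 in the 3xTg list. Chgb had 18.9 and 36.1, Golga7b 19.5 and 30.6, and Lhx3 16.5 and 27.5, in the same order. At Grin1, the full element lay under a peak of 8.28 in WT and 9.85 in 3xTg, and at Chga the values were 7.28 and 11.1. A full match was thus found at peaks across the range of enrichment.

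A further 19 members had 1 mismatch, 9 had 2 and 7 had 3. The sites at the strongest of these and at well-known neuronal genes show which positions vary. Over all 44 matches, TCAGCACC was whole at 31 and GGACAGC at 30.

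Iqsec3 (chr6:121473213-121473242, minus strand): ccgctTCAGCACCacGGtCAGCtCCtggcg
Vgf (chr5:137030269-137030298, minus strand): cggctTCAGCACgctGGACAGCgCCcgcgc
Xkr7 (chr2:153032389-153032418, plus strand): cgccgTCAGCACCaaGGACAGCgaCatagt
Rundc3a (chr11:102393448-102393477, plus strand): ccggcTCAGCACCtcGGAgAGCtCCctccc
Scamp5 (chr9:57468189-57468218, minus strand): aatatTtAGCACCacGGACAGCtCCtgcaa
Mir212 (chr11:75173517-75173546, minus strand): ctgcaTCAGCACCgcGGACAGCggCgcagg
Celf6 (chr9:59578431-59578460, plus strand): ggcttTCAGCACCgcGGACAGCggCggcgg
Chrnb2 (chr3:89764449-89764478, minus strand): cggctTCAGCACCacGGACAGCgCtccgtc
Dlgap3 (chr4:127173707-127173736, minus strand): cccttTCAGtACCcgGGACAGCtCCaaagg
Srrm4 (chr5:116591490-116591519, minus strand): acgttTCAGCACttcGGACAGCgCCccagg
Glra1 (chr11:55607933-55607962, plus strand): caggtTCAGCACCacGGAgAGCgtCcagcc
Slc12a5 (chr2:164968644-164968673, minus strand): gcattcCAGaACCgtGGACAGCgCCtagcg
Snap25 (chr2:136714334-136714363, plus strand): accttTCAGCACCgcGGACAGCgatccggc
Gria2 (chr3:80802985-80803014, plus strand): cgattTtAGCACCgcGGACAGCgCtttggt
Cacng3 (chr7:122671014-122671043, plus strand): tccgcTCAGCACCacGGACctCagCtctcc

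Iqsec3 encodes an ARF exchange factor of inhibitory synapses, Vgf a neuropeptide precursor, Scamp5 a secretory vesicle protein, Chrnb2 a nicotinic receptor subunit, Dlgap3 a postsynaptic scaffold and Srrm4 a neural splicing factor. Glra1 encodes a glycine receptor subunit, Slc12a5 the neuronal chloride exporter KCC2 and Snap25 a SNARE protein of synaptic vesicle release. Gria2 encodes an AMPA receptor subunit and Cacng3 an auxiliary subunit of AMPA receptors. Celf6 is an RNA-binding protein. Iqsec3 had a fold enrichment of 42.1 in WT and 54.1 in 3xTg, and Vgf had 28.2 and 43.4. The values at Scamp5 were 16.3 and 32.3, and those at Srrm4 were 6.81 and 9.49. The remaining members with 1 mismatch were Syndig1l, Sez6, Ctxn2, Kcnk12, Fbll1, Alk, Ttc9b, Barhl1 and Tmem181a, with 3xTg fold enrichments from 8.51 at Tmem181a to 16.2 at Syndig1l. Their genes include a two-pore potassium channel (Kcnk12), a receptor tyrosine kinase (Alk) and a homeodomain factor (Barhl1).

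RE1 was more frequent at members than at 3xTg-only peaks of the same promoter type. Members had 44 matches in 631 peaks (6.97%) and 3xTg-only one-strand promoter peaks had 7 in 599 (1.17%, 95% Wilson interval 0.567% to 2.39%), with odds 6.34 times as high. The test was Fisher's exact, two-sided (p = 1.70e-07, adjusted p = 4.76e-06 over the 28 tests made). The 3xTg-only peaks were weaker, with a median 3xTg fold enrichment of 9.55 against 12.6 for members. Among members the RE1 share was 3.57% at a 3xTg fold enrichment of 10 or less and 27.0% over 30. The groups thus differed in strength as well as in sharing. Among peaks with a 3xTg fold enrichment from 10 to 15, the RE1 difference kept its direction. There, 14 of 269 members and 2 of 220 3xTg-only peaks had a match (adjusted p = 0.0289, Fisher's exact test). The call was lost when sharing required 50% of both peaks, with 23 of 456 members and 28 of 774 3xTg-only peaks (exact test, adjusted p = 0.333). Under that requirement 21 of the 44 members with RE1 moved to the other group. The 3xTg peak was a median 1.96 times as wide as the WT peak at members with RE1 and 1.61 times at members without.

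**Figure D1:**
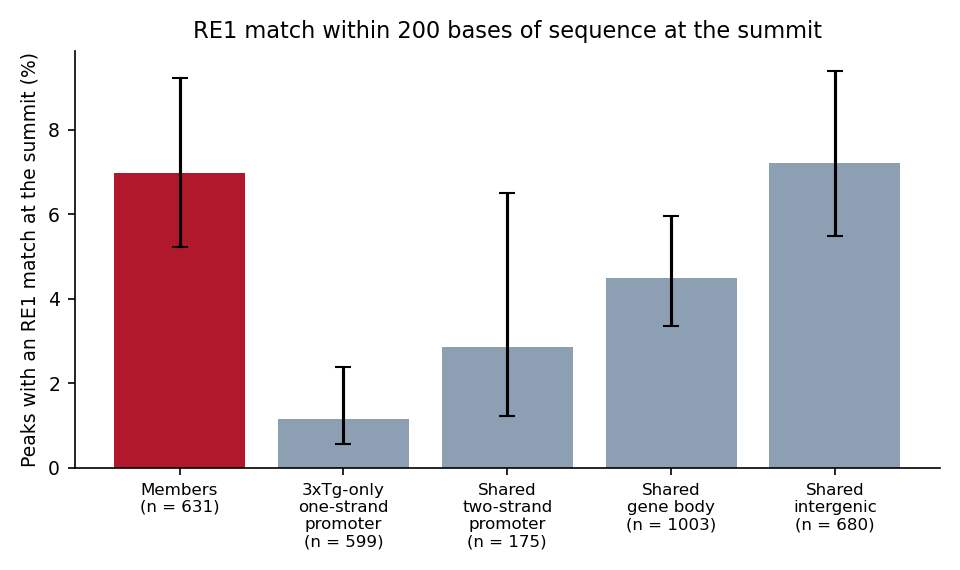
Share of peaks with an RE1 match of at most 3 mismatches in the 200 bases at the summit, by class of 3xTg peak, with 95% Wilson intervals over peaks. Members (631 peaks, red) stand at 6.97%, 3xTg-only one-strand promoter peaks at 1.17% and shared intergenic peaks at 7.21%.

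Shared peaks elsewhere in the genome were not told apart from the members by RE1. Two-strand shared promoter peaks held 5 matches in 175 (2.86%, adjusted p = 0.0966), and shared gene-body and intergenic peaks together held 94 in 1683 (5.59%, adjusted p = 0.333, Fisher's exact tests). When the whole peak was searched, members had a match in 60 of 631, and both differences passed the threshold (exact test, adjusted p = 0.0498 against two-strand peaks and 0.0188 against gene-body and intergenic peaks). Members were wider, with a median 3xTg width of 1359 bases against 989 for shared gene-body and 902 for shared intergenic peaks, and narrower than two-strand promoter peaks, whose median was 1577 bases.

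Most mouse promoters lack such a site. Among 31510 curated start sites, 0.235% had a match in a window of 200 bases placed 124 bases upstream, the median summit position of the members, and 0.289% had one in a window centred on the start site. These windows sit at 1 place, whereas a member's window follows its summit. A best match with 4 mismatches, outside the limit, was found at similar shares, 1.11% of members, 1.00% of 3xTg-only peaks and 1.24% of all start sites.

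**Figure D2:**
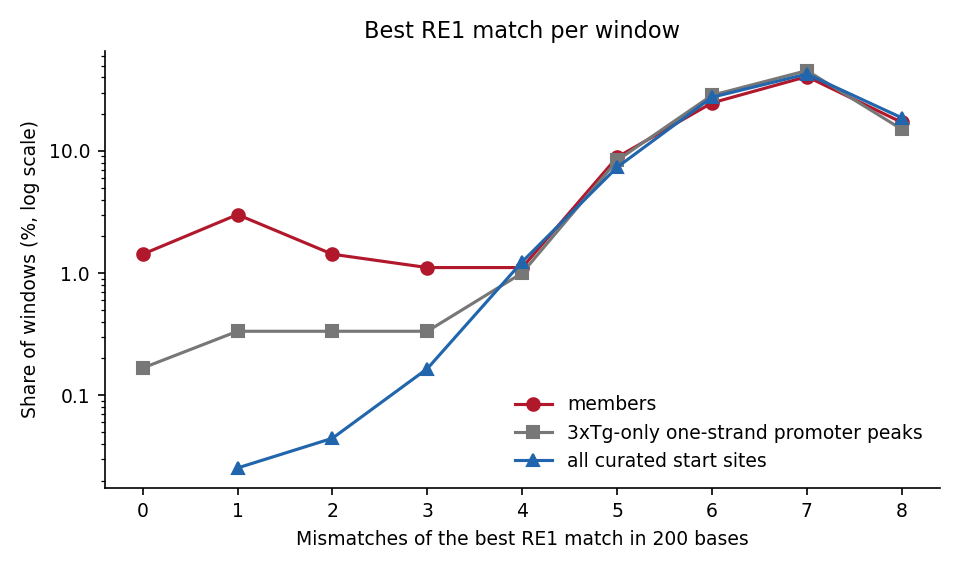
Share of 200-base windows (log axis) by the number of mismatches of their best RE1 match, for 631 members, 599 3xTg-only one-strand promoter peaks and 31510 curated start sites. Members exceed the other lines from 0 to 3 mismatches and meet them at 4. No point is drawn for all start sites at 0 mismatches, where the share is 0.

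A second, smaller group of members had both arms of RE1 at a wider spacing. A split RE1 was defined, after the arm counts were seen, as an exact TCAGCACC followed on the same strand by GGACAGC with at most 1 mismatch after 3 to 12 bases, in place of the usual 2. It was found at 15 of the 587 members with no RE1 match, and every one of the 15 had a gap of 7 to 10 bases (4, 5, 5 and 1 members in that order). The right arm was exact in 10 of them. The 10 exact sites and that of Cyb5r4, the strongest member of the group, are printed with the matching arms in capitals and the spacer in lower case.

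Lrp11 (chr10:7589821-7589842, minus strand): TCAGCACCggcgtgcGGACAGC
Disp2 (chr2:118779734-118779755, plus strand): TCAGCACCagagcccGGACAGC
Kcnh6 (chr11:106007963-106007984, plus strand): TCAGCACCacgacgcGGACAGC
Unc13a (chr8:71671728-71671750, plus strand): TCAGCACCgggggcgcGGACAGC
A230051N06Rik (chr17:56242211-56242233, plus strand): TCAGCACCaggatttcGGACAGC
Scg3 (chr9:75683946-75683968, minus strand): TCAGCACCcgcggggcGGACAGC
Svop (chr5:114091257-114091279, plus strand): TCAGCACCgggatgctGGACAGC
Actl6b (chr5:137553567-137553590, minus strand): TCAGCACCgaggcggccGGACAGC
Bicdl1 (chr5:115731500-115731523, minus strand): TCAGCACCcgccgagccGGACAGC
Trim67 (chr8:124793381-124793405, minus strand): TCAGCACCaccagacggcGGACAGC
Cyb5r4 (chr9:87021796-87021819, plus strand): TCAGCACCagggctgggGaACAGC

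Unc13a encodes Munc13-1, which primes synaptic vesicles, Scg3 a secretogranin and Svop a synaptic vesicle protein. Actl6b encodes BAF53b, a neuronal subunit of the BAF chromatin remodelling complex, Kcnh6 a potassium channel subunit and Trim67 a neuronal ubiquitin ligase. A230051N06Rik is a non-coding transcript at Mir7b. The peaks of this group were strong, with a median 3xTg fold enrichment of 25.8 (14.1 to 52.6) and a median WT value of 14.4 (6.05 to 31.4). Lrp11 had 24.8 in WT and 48.9 in 3xTg, Unc13a had 23.8 and 44.0, and A230051N06Rik had 31.0 and 44.3. Cyb5r4, a cytochrome b5 reductase gene, had 31.4 and 52.6.

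Among peaks with no RE1 match, 15 of 587 members (2.56%) and 2 of 592 3xTg-only peaks (0.338%) had a split RE1, given with no test because the definition followed from these counts of arms. Of the 15 members, 14 had a 3xTg fold enrichment over 15. Between 10 and 15 the shares were 1 of 255 members and 1 of 218 3xTg-only peaks, in the opposite direction, so the difference was not seen at matched enrichment. Shared gene-body and intergenic peaks with no RE1 match had a split RE1 in 21 of 1589 (1.32%), and all start sites in 0.0381%. RE1 and split RE1 together covered 59 of the 631 members (9.35%).

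The left arm, with or without a right arm, was also more frequent at members. Tests of single arms were not among those planned. TCAGCACC lay on either strand at 30 of 587 members with no RE1 match (5.11%) and at 6 of 592 such 3xTg-only peaks (1.01%, Fisher's exact test, adjusted p = 0.000279). The 15 members with a split RE1 are included, the other 15 of the 30 had none, and the left arm without a split RE1 was not tested on its own. These include Cacng2, Scg2, Rab3c, Ptprn2 and Cplx2. The call was lost between 10 and 15 in 3xTg fold enrichment, with 8 of 255 against 3 of 218 (exact test, adjusted p = 0.333), and at 50% overlap, with 19 of 433 against 17 of 746 (exact test, adjusted p = 0.105). The right arm GGACAGC was at 58 of 587 members and 42 of 592 3xTg-only peaks, a difference that did not pass the test (exact test, adjusted p = 0.166).

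Enrichment was higher at members with RE1, in both genotypes. Above the members' median, 34 of 44 members with RE1 and 281 of 587 without it were found in the WT list (77.3% and 47.9%, Fisher's exact test, adjusted p = 0.00102), and 31 of 44 and 284 of 587 in the 3xTg list (70.5% and 48.4%, adjusted p = 0.0170). The median WT fold enrichment was 9.12 with RE1 and 7.49 without, and the median 3xTg value was 16.9 and 12.4. Among members with a 3xTg fold enrichment over 30, 10 of 37 had RE1 (27.0%), and 15 of the 37 had RE1 or a split RE1. Between 10 and 12 the count was 4 of 125 (3.20%).

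Summits of the 2 groups also lay at different places on the promoter. With RE1, 27 of 44 summits (61.4%) were downstream of the start site, and without RE1, 146 of 587 (24.9%) were (odds ratio 4.80, Fisher's exact test, adjusted p = 1.97e-05). The median summit was 81 bases downstream with RE1 and 127 bases upstream without. Matches lay close to the summit, with a median distance of 18 bases between the centre of the element and the summit, and 37 of 44 were within 50 bases. The element ran on the strand of the gene at 21 members and on the other strand at 23.

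**Figure D3:**
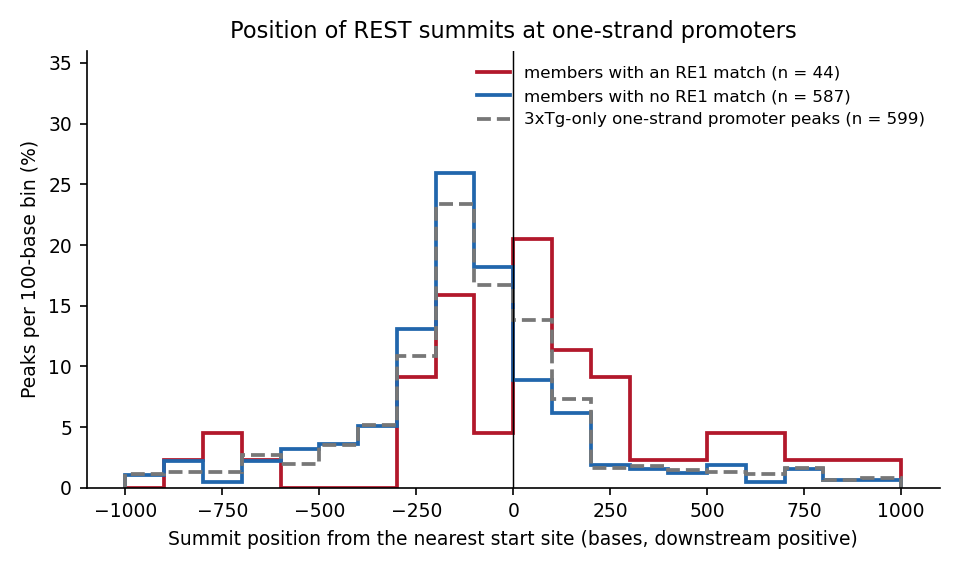
Position of the 3xTg summit relative to the nearest curated start site in bins of 100 bases, as a percentage of each group. Members with no RE1 match (587) and 3xTg-only peaks (599) peak between 200 and 100 bases upstream, and members with an RE1 match (44) peak in the first 100 bases downstream.

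Taken over the 631 peaks, members did not differ detectably from 3xTg-only peaks in where the summit lay or in the kind of promoter. Downstream summits were 173 of 631 members (27.4%) and 189 of 599 3xTg-only peaks (31.6%, exact test, adjusted p = 0.194). CpG-rich start sites, with a CpG observed-to-expected ratio of at least 0.6 and at least 50% GC in 500 bases, were 509 of 631 (80.7%) and 484 of 599 (80.8%, adjusted p = 1, Fisher's exact tests), against 45.3% of all start sites. Non-coding start sites were nearest at 47 members and 48 3xTg-only peaks (7.45% and 8.01%, exact test, adjusted p = 0.839). By annotation, 405 member summits lay upstream of the start site and outside any curated transcript, 105 in introns, 85 in untranslated exon sequence, 18 in coding exons, 16 in exons of non-coding RNAs and 2 downstream of the start site outside curated transcripts. The nearest gene was on the plus strand at 330 members and on the minus strand at 301.

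Short motifs of general promoter factors were common at members and did not set them apart. Each was searched on both strands in the same 200 bases. The GC box GGGCGG was at 41.7% of members, 43.6% of 3xTg-only peaks and 34.9% of all start sites. The CCAAT box (CCAAT) was at 37.9%, 32.1% and 29.997%, the ETS motif CCGGAAG at 11.6%, 15.5% and 5.89%, and the E-box CACGTG at 8.56%, 6.68% and 5.21%. TATAAA was at 4.44%, 4.34% and 8.80%, the CRE TGACGTCA at 2.06%, 1.84% and 1.37%, and the YY1 motif AAGATGGC at 1.43%, 2.34% and 1.18%. The NRF1 motif GCGCATGC was at 1.74%, 3.51% and 1.98%. None of these 8 motifs passed the adjusted threshold between members and 3xTg-only peaks. The lowest adjusted p values were 0.0848 for CCAAT and 0.0966 for ETS.

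Gadd45b, Tle4 and Cacng2, which are among the 15 members highest in 3xTg and have neither RE1 nor a split RE1, are shown as examples. Gadd45b encodes a stress-inducible protein of DNA repair and demethylation, and had 30.5 in WT and 45.0 in 3xTg. Tle4 encodes a Groucho corepressor, and had 37.3 and 40.2. Cacng2 encodes stargazin, an auxiliary subunit of AMPA receptors, and had 46.1 and 45.2. The 200 bases at each summit are printed on the strand of the gene, with the motifs above and both RE1 arms in capitals.

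Gadd45b (chr10:80929875-80930074, plus strand): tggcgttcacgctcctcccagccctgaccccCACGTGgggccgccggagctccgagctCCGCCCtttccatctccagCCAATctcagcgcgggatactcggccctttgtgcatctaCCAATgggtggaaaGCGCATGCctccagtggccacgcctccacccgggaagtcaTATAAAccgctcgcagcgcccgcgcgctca
Tle4 (chr19:14598296-14598495, minus strand): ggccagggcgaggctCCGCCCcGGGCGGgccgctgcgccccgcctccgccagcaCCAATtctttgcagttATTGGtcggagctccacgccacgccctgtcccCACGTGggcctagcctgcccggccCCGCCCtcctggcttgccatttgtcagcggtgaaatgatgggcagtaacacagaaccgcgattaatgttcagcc
Cacng2 (chr15:78119809-78120008, minus strand): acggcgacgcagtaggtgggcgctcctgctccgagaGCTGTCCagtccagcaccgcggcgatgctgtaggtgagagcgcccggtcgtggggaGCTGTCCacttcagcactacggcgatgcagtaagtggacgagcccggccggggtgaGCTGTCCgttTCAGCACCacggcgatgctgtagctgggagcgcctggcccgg

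The Gadd45b window held 2 CCAAT boxes, a GC box, an E-box, a TATA box and an NRF1 motif, and no arm of RE1. The Tle4 window held 3 GC boxes, 2 CCAAT boxes and an E-box. The Cacng2 window was different, with 1 copy of TCAGCACC on the strand of the gene and 3 copies of GGACAGC on the other strand, printed as GCTGTCC. Its bases matched themselves at 67.4% of positions when shifted by 56 bases. Its best RE1 match had 6 mismatches and did not count as a site. These matches describe letters and not binding.

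A tandem repeat lay under the summit at Pold4, which encodes a subunit of DNA polymerase delta. Its peak had 37.01 in WT and 50.5 in 3xTg, with the summit 950 bases upstream of the start site. At a shift of 54 bases, 99.3% of positions in the window were identical, so reads from the repeat copies are hard to place and the value is uncertain.

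Pold4 (chr19:4230843-4231042, plus strand): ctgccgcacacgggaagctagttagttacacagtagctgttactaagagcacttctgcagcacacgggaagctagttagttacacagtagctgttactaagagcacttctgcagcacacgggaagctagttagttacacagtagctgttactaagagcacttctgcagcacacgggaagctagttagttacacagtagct

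Windows of which at least 50% was soft-masked as repeat in the assembly were rarer at members, 3 of 631 (0.475%) against 15 of 599 3xTg-only peaks (2.50%, Fisher's exact test, adjusted p = 0.0137). This measure was chosen after the data were seen. The call was lost between 10 and 15 in fold enrichment, with 1 of 269 against 3 of 220 (exact test, adjusted p = 0.441), and at 50% overlap, with 2 of 456 against 16 of 774 (exact test, adjusted p = 0.0696).

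The 15 members with the highest 3xTg fold enrichment mixed neuronal genes with genes of general function. After Npas4 (55.8) and Iqsec3 (54.1) came Cyb5r4 (52.6), Pold4 (50.5) and Rny1 (49.8), which encodes a Y RNA, a small RNA made by RNA polymerase III. Lrp11 (48.9), Cacng3 (45.8), Cacng2 (45.2), Gadd45b (45.0), A230051N06Rik (44.3), Unc13a (44.0) and Vgf (43.4) followed. Xkr7 (41.3), Tle4 (40.2) and Midn (39.2), which encodes a nuclear protein of protein turnover, closed the group. In WT these 15 ranged from 15.9 at Rny1 to 53.7 at Npas4. RE1 was found at 5 of them, Npas4, Iqsec3, Cacng3, Vgf and Xkr7, and a split RE1 at Cyb5r4, Lrp11, A230051N06Rik and Unc13a.

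**Figure D4:**
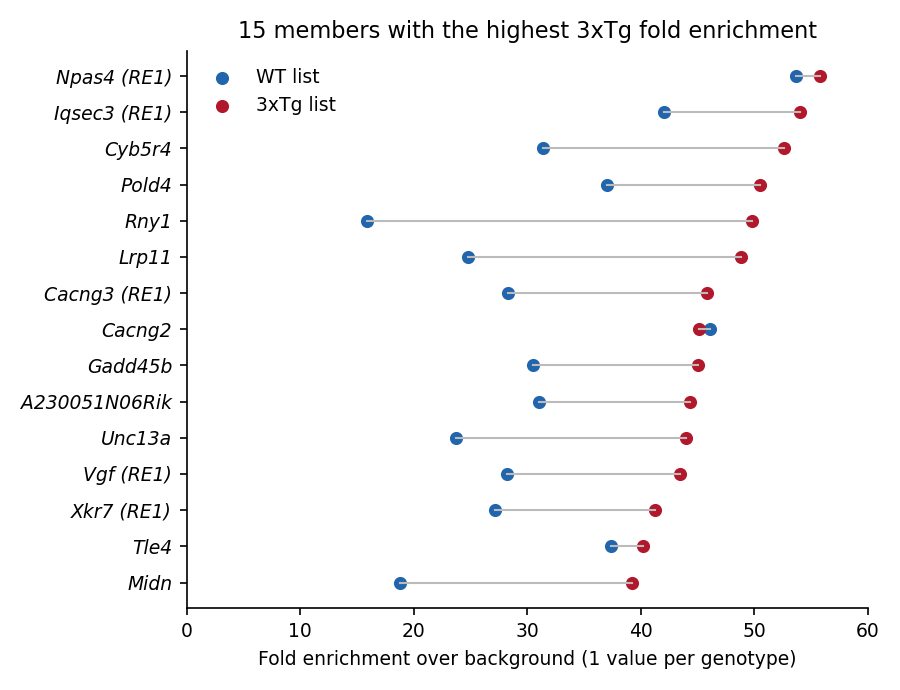
Fold enrichment over background in the WT list (blue) and the 3xTg list (red) for the 15 members with the highest 3xTg value, with those holding an RE1 match marked. Each point is 1 value from a list that combines 4 replicates and has no error bar. Values are closest at Npas4, Cacng2 and Tle4 and farthest apart at Rny1.

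Across the members the 3xTg value was almost always the larger. The median fold enrichment was 7.55 in WT (6.03 to 53.7) and 12.6 in 3xTg (8.51 to 55.8), and the ratio of 3xTg to WT had a median of 1.63 and quartiles of 1.45 and 1.89. The ratio was over 1 at 628 of 631 members (99.5%). The same was seen over all 2489 shared peaks, where the ratio was over 1 at 99.5% and had a median of 1.70. A ratio of at least 1.5 was found at 427 members (67.7%), beside 73.7% of all shared peaks, and a ratio of 1/1.5 or less at 0 members, beside 0% of all shared peaks. The lists also began at different values. The lowest value of any member was 6.03 in the WT list and, at another member, 8.51 in the 3xTg list. A member with a WT value under 8.51 therefore had to have a ratio over 1. The members' WT median of 7.55 was under 8.51, so this applied to most members. A ratio of 1/1.5 or less was likewise out of reach at the members' WT upper quartile of 9.67 and below. The counts of ratios over 1 and of 1/1.5 or less were thus largely set by where the lists began. Library depth is not in the peak lists, so its part in the ratio was not tested.

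**Figure D5:**
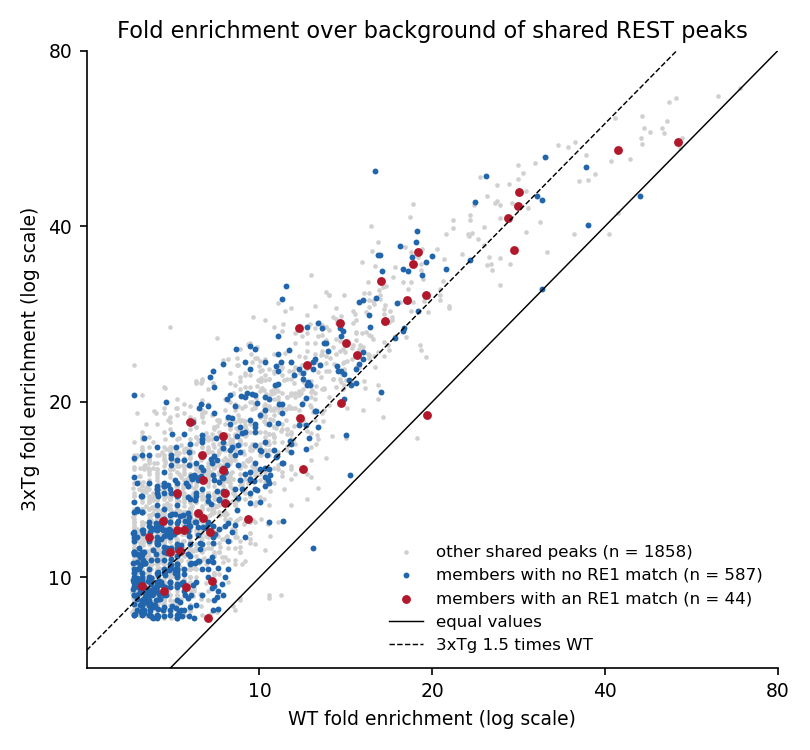
Fold enrichment of 2489 shared peaks in the WT list and the 3xTg list, both on log axes, with the lines of equal values and of a 3xTg value 1.5 times the WT value. Members with RE1 (red, 44) and without (blue, 587) follow the same band as the other shared peaks (grey, 1858). Few points reach the line of equal values.

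After division by the median ratio of all shared peaks, 14 members (2.22%) were at least 1.5 times higher in 3xTg and 16 were at least 1.5 times lower, beside 3.05% and 1.77% of all shared peaks. The highest ratios were at Ppfia2 (6.05 in WT and 20.5 in 3xTg, ratio 3.39), Rny1 (15.9 and 49.8, ratio 3.13) and Rsad1 (6.87 and 20.02, ratio 2.91). Ppfia2 encodes liprin-alpha-2, a scaffold of the presynaptic active zone, and none of the 3 had RE1. Fads1 (2.84), Zfpm1 (2.76), Dhx16 (2.74), Mdm4 (2.72) and Pex14 (2.71) followed, genes of fatty acid desaturation, transcription, RNA splicing, p53 control and peroxisomes.

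The lowest ratios were at Trappc9 (12.4 in WT and 11.2 in 3xTg, ratio 0.905), Snap25 (19.6 and 19.0, ratio 0.969) and Cacng2 (46.1 and 45.2, ratio 0.979). Tle6 (1.01), Npas4 (1.04), Rnu3b4 (1.04), Mterf1a (1.04) and Tmem181a (1.05) came next. Of these 8, Snap25, Npas4 and Tmem181a had RE1. As a group, members with RE1 had a median ratio of 1.61 and those without 1.63, and a ratio above the members' median was found at 20 of 44 and 295 of 587 (adjusted p = 0.746, Fisher's exact test).

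Summits of the 2 lists lay a short distance apart, and no closer at members than over all shared peaks. The median distance between the WT and the 3xTg summit of a member was 38 bases, and 541 of 631 pairs (85.7%) were within 100 bases, beside a median of 33 bases and 89.6% over all shared peaks. Within 50 bases were 389 members (61.6%), beside 67.4%. Summits lay within 25 bases of each other at 24 of 44 members with RE1 and 203 of 587 without (54.5% and 34.6%, Fisher's exact test, adjusted p = 0.0289). Neither enrichment range alone passed the threshold, with 14 of 25 against 94 of 197 over 15 (exact test, adjusted p = 0.669) and 10 of 19 against 109 of 390 at 15 or less (exact test, adjusted p = 0.0848). The 3xTg peak was wider, with a median of 1359 bases against 776 in WT, as it was over all shared peaks, with 1084 against 625.

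Against other shared peaks, members were of ordinary strength in WT and somewhat lower in 3xTg. Above the median of all shared peaks were 302 of 631 members and 942 of 1858 other shared peaks in the WT list (47.9% and 50.7%, adjusted p = 0.333), and 278 and 961 in the 3xTg list (44.1% and 51.7%, adjusted p = 0.00508, Fisher's exact tests). Above the upper quartile of all shared peaks, the 3xTg difference was 2.27 percentage points in the same direction and did not pass the test (exact test, adjusted p = 0.370). The difference above the median was larger among peaks with a 3xTg width under the median of all shared peaks. There, 53 of 189 members and 473 of 1055 other shared peaks were above it (exact test, adjusted p = 1.34e-04). Against shared intergenic peaks alone, chosen after seeing the data, the 3xTg difference was -11.5 percentage points (exact test, adjusted p = 2.35e-04).

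Small structural RNA genes were among the members. Members lay at Rnu1a1, Rnu2-10 and Rnu11, which encode spliceosomal RNAs, at Rnu3b1, Rnu3b2, Rnu3b3 and Rnu3b4, which encode the U3 RNA of ribosomal RNA processing, and at Rny1, Rny3 and Vaultrc5. A further 8 members had a tRNA gene within 1000 bases of the summit, among them those at Prmt5, Agbl5 and Polg. These 18 members were chosen after their names were seen. Their share is therefore given with no test, and was 2.85% of members and 0.835% of 3xTg-only peaks (5 of 599). Between 10 and 15 in fold enrichment the counts were 4 of 269 and 3 of 220. Rnu1a1 had 18.5 in WT and 35.4 in 3xTg, Rny3 had 19.2 and 33.0, and Rnu11 had 15.1 and 29.9. The ratio ran from 1.04 at Rnu3b4 to 3.13 at Rny1 with a median of 1.93. The 4 Rnu3b peaks lie within chr11:87442315-87472293. The genes are identical over the 215 bases they share in the annotation, so reads inside them match every copy. The flanks of the genes were not compared, and the 4 values are uncertain and may not be independent.

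MicroRNA genes were also among the members. The peak at Mir212 spans the Mir212 and Mir132 pair on chromosome 11 and had 13.8 in WT and 27.4 in 3xTg, with an RE1 of 1 mismatch. The peak at A230051N06Rik ends past the mature Mir7b sequence on chromosome 17, and the peak at Mir129-1 on chromosome 6 had 6.43 and 14.5 with no RE1. Members also lay at Mir8105, with 6.19 in WT and 10.8 in 3xTg, and at Mir1945, with 6.03 and 10.6, both with no RE1. Mature sequences from RefSeq (GRCm38.p6) are printed with the seed, bases 2 to 8, in capitals. They show that miR-212-3p and miR-132-3p share the seed AACAGUC, while the others printed have seeds of their own.

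mmu-miR-212-3p (chr11:75173443-75173464, plus strand): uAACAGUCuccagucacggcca
mmu-miR-132-3p (chr11:75173723-75173744, plus strand): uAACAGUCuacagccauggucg
mmu-miR-7b-5p (chr17:56243017-56243040, plus strand): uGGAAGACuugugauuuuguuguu
mmu-miR-129-5p (chr6:29022624-29022644, plus strand): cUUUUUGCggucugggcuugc

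By role, the list of classic REST target genes held the most members. These lists were drawn up with earlier results of these data known, and their counts are given beside the 2.43% of 26180 curated genes that had a member within 1000 bases, with no test. Of 40 classic REST target genes, 14 had a member and 10 of those had RE1. The list holds secretory and neuropeptide genes (Vgf, Chga, Chgb, Scg2, Scg3), receptors (Glra1, Chrnb2, Chrm4, Gria2, Grin1), the transporter Slc12a5, the release genes Unc13a and Snap25, and Trim67. Scg2 had a fold enrichment of 12.7 in WT and 18.1 in 3xTg, and Scg3 had 12.5 and 19.3. Trim67 had 17.8 and 26.4, and Slc12a5 had 13.9 and 19.9. In every one of these 14 but Snap25 the 3xTg value was the larger. The same was found at 99.5% of all 2489 shared peaks, so this does not set these genes apart.

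Synaptic vesicle genes had members at 4 of 30 (Unc13a, Snap25, Bsn and Cplx2), and AMPA receptor auxiliary and postsynaptic genes at 4 of 30 (Cacng3, Cacng2, Gria2 and Grin1). Bsn, which encodes the active zone scaffold bassoon, had 9.27 in WT and 14.7 in 3xTg, and the complexin gene Cplx2 had 7.52 and 13.7. Immediate early genes had members at 3 of 25, with Jun at 6.997 and 10.4 and the phosphatase gene Dusp1 at 7.42 and 9.35, both far under Npas4. Among potassium channel genes, members lay at Kcnk12, with 6.79 and 12.5, and at Kcnh3, with 7.19 and 10.3. Of 6 Groucho genes, Tle4 and Tle6 had members, and Tle6 had 31.0 in WT and 31.2 in 3xTg.

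Among genes outside neuronal function, REST corepressor and chromatin genes had members at 2 of 20 (Ctbp1 and Kdm5c), proteasome genes at 2 of 30 (Psmb5 and Psmc1) and respiratory chain genes at 1 of 30 (Cox5a). Ctbp1, a corepressor, had 9.64 in WT and 14.7 in 3xTg, and Kdm5c, a histone demethylase, had 6.05 and 11.96. Psmb5 had 6.05 and 12.9, and Cox5a had 7.19 and 10.4. None of these 5 peaks had RE1. Of the genes that the study names at its ChIP-seq results, Cacng2 had a member, and Cdk5, Gsk3b, Daxx, Foxo3, Gadd45a, Casp9 and Tle3 had none. Having none means no shared peak at a one-strand promoter by the choice made here, and not a lack of REST binding, which the study reports at these genes. A shared peak that is not a member, for example, was nearest to Foxo3 (6.26 in WT and 8.90 in 3xTg).

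At the limits of the choice, the member summits farthest from a start site were at Alk (995 bases, 8.19 in WT and 11.99 in 3xTg) and Plekhb1 (994 bases, 18.9 and 28.7), and the nearest shared summits outside were at Aloxe3 and Phf21b, both at 1001 bases, with 8.54 and 17.3 in 3xTg. The smallest overlap with a WT peak was 281 bases, at Asf1a and Afg3l2, and the closest 3xTg-only peak, at Klf7, lay 85 bases from a WT peak. A start site of the other strand came nearest at Slc25a23, 1007 bases from the peak, and lay 979 bases away at Crem, which is therefore a two-strand promoter.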

How the data were processed

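REST ChIP-seq was measured in 4 WT and 4 3xTg cortex pools with 1 input per genotype. Per the study's methods, the authors aligned reads to mm10 with STAR (the labels also list BWA), called peaks with MACS and removed blacklisted regions. The deposited lists are 1 per genotype and, by their names, combine its 4 replicates. How they were combined is not given in the sources used here. Each deposited peak has a fold enrichment over background (a ratio), a −log10 p-value, a −log10 q-value and a score, all by the authors, and a summit offset. The score and the −log10 p-value were not used in a comparison. Depth is unknown from the lists.

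Start sites were those of curated RefSeq transcripts of mm10 (GRCm38.p6). Peaks on chromosome Y (4 in WT, 9 in 3xTg) were not used. With several WT partners the one with the higher fold enrichment was used. Shares of peaks were compared by two-sided Fisher's exact tests with Benjamini-Hochberg adjustment over 28 tests, and a call was an adjusted p under 0.05. Peaks are not biological replicates, neighbouring peaks are not independent, and 95% Wilson intervals cover counting error over peaks only. The members and gene lists were chosen with earlier results of these data known. Named genes are the 15 members highest in 3xTg, those with at most 1 RE1 mismatch, the 8 highest and 8 lowest ratios, members at the limits of the choice, genes the study names at its ChIP-seq results and listed genes. One listed gene is not reported. Split sites, promoter motifs other than RE1, soft-masking, small RNAs and microRNAs were chosen after the data were seen, and the tests of split sites and small RNAs, though counted among the 28, are not reported. The programs were tested on simulated data, where 200 of 200 planted RE1 elements were found, and bedtools gave the same 2489 shared peaks. Python 3.11.15, numpy 2.4.6, pandas 2.3.3, scipy 1.17.1 and pysam 0.24.0 were used.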

Additional observations from a re-analysis of the deposited data

How the results depend on the processing

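No paired analysis was possible because each peak list combines the 4 replicates of a genotype, so the replicate numbers reach no value, and no replicate was left out. Of 72 results recomputed under alternatives, 47 kept their direction and side of the threshold, or stayed within the limit set for a count. Differences are in percentage points, first group minus second, with adjusted p from Fisher's exact tests. Where values moved, the cause was not tested, except that a stricter overlap reassigns peaks between groups.

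By exact tests with 50% overlap, the RE1 difference between members and 3xTg-only peaks fell to 1.43 (p = 0.333), against gene-body and intergenic peaks it turned to -0.736 (p = 0.746), the split RE1 difference, given with no test, was 1.74, the left-arm difference 2.11 (p = 0.105), the soft-masked difference -1.63 (p = 0.0696) and the non-coding difference turned to 0.272 (p = 0.982). By exact tests with 3xTg fold enrichment from 10 to 15, RE1 against two-strand peaks turned to -0.129 (p = 1) and the split RE1, with no test, to -0.0666, CpG-rich start sites turned to 2.86 (p = 0.633), the left arm was 1.76 (p = 0.333), soft-masking -0.992 (p = 0.441) and small RNAs, with no test, 0.123. With the whole peak searched (exact tests), RE1 passed the threshold against two-strand peaks at 5.51 (p = 0.0498) and against gene-body and intergenic peaks at 3.39 (p = 0.0188). CpG-rich start sites turned to 0.682 with 200 bases (p = 0.833) and 0.694 around the summit (p = 0.870, exact tests). Members against other shared peaks in the 3xTg list were -2.27 above the upper quartile (p = 0.370), and against intergenic peaks alone in the WT list -6.70 (p = 0.0443, exact tests). Over a 3xTg fold enrichment of 15, the summit difference with RE1 was 8.28 (p = 0.669), and at 15 or less the summit difference was 24.7 (p = 0.0848, exact tests). The ratio difference over 15 was -24.1, with no call drawn, since the 3xTg value chose the range and is part of the ratio.

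The 631 members fell to 146 with fold enrichment over 10 in both lists and ranged from 456 to 654 under the other alternatives. The share of members with a ratio of at least 1.5 was 67.7%, 16.0% at 2-fold, 2.22% after division by the median ratio of all shared peaks, and 42.0% by rank within each list. Intergenic peaks alone, the enrichment ranges of added tests and their overlap were chosen after seeing the data.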
